A study of Homo sapiens with 8 samples.

Results

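The comparison described here sets MDA-MB-231 cells that overexpress wild-type *DAXX* (WT OE) against their control line, in 4 of the 8 RNA sequencing libraries of the series. Its members are the 2 WT OE and the 2 control libraries, and the genes tested are those whose FPKM reached 1 in 2 or more of the 8 libraries (10465 of 36991 genes). FPKM, fragments per kilobase of transcript scaled to the mapped fragments of a library, is the unit of every level given. MDA-MB-231 is a human triple-negative breast cancer cell line. All 4 lines of the series were derived from it by lentiviral transduction and selected with puromycin at 2 µg/mL. The control line carries a scrambled shRNA. The WT OE line carries a wild-type *DAXX* cDNA with FLAG, MYC and His tags under the CMV immediate early promoter. The KD line carries an shRNA against *DAXX*, and the DSM OE line the cDNA of a mutant that does not bind SUMO. Each condition is therefore 1 derived line, and the control is an shRNA line rather than a line with an empty overexpression vector. The question asked of the comparison is which genes, and which lipogenic genes among them, differ when *DAXX* is overexpressed.

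DAXX is a nuclear protein that acts with ATRX as a chaperone of the histone variant H3.3. It binds SUMO-modified partners through short SUMO-interacting motifs and is recruited by many transcription factors as a corepressor or coactivator. SREBP1 and SREBP2 are the transcription factors that drive the genes of cholesterol and fatty acid synthesis when they are released from the endoplasmic reticulum and cleaved.

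The libraries of the series were of similar size. Depth relative to the first control library lay between 0.918 and 1.17, as estimated from the lowest values, and the duplicates of a line correlated across tested genes with r between 0.936 and 0.947. Genes are not independent replicates. In each line 126 to 149 genes stood more than 2 apart between duplicates on the log2 scale. Mitochondrially encoded genes took 3.94% and 4.16% of the FPKM in control and 4.22% and 4.25% in WT OE, with 3.08% and 2.57% in DSM OE and 4.47% and 4.75% in KD. The DSM OE libraries were the lowest, and the part of this in the contrasts with DSM OE was not tested. The 3 defining genes of the line, *VIM*, *CD44* and *AXL*, summed to 923 to 1026 in control and 873 to 1290.5 in WT OE, while *ESR1* and *PGR* were listed at 0. Of the fibroblast and other stromal markers, *PDGFRA* and *LUM* were listed at 0 in every library, and the 8 markers summed to 7.89 to 7.98 in control and 5.12 to 6.48 in WT OE. *PTPRC* stood at 0.0203 or less and *CD3E* at 0 among the immune markers, whose sum of 43.4 to 54.3 in control and 26.9 to 31.8 in WT OE was mostly *CD68*. *CD68* itself was called lower in WT OE (-0.76 on the log2 scale, adjusted p = 0.0474 from limma), a call that was lost without any 1 library (-0.92 to -0.61). *VWF* was listed at 0. The part of these markers in the results was not tested. In bulk RNA, fewer cells of a type and less RNA per cell cannot be told apart.

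*DAXX* mRNA rose in the WT OE line. *DAXX* lies on chromosome 6 from 33318558 to 33322959 (ENSG00000204209), and all positions given are those of GRCh38.p14. Its FPKM was 25.3 and 37.4 in the control libraries, 158 and 283 in WT OE, 64.6 and 93.8 in DSM OE and 8.6 and 7.3 in KD. Both WT OE libraries stood above every other library, and on the log2 scale they differed from each other more than the duplicates of any other line did. The log2 fold change over control, taken on log2(FPKM + 1), was 2.74 (standard error 0.34, adjusted p = 0.0175 from limma). The difference of WT OE from DSM OE was 1.43 (adjusted p = 0.122) and was not called. Values per gene do not separate transcripts of the endogenous gene from those of the introduced cDNA. The call over control was lost without either control library or the second WT OE library, and its log2 fold change lay between 2.33 and 3.16 when each of the 8 was omitted.

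In all, 535 genes passed the test between WT OE and control (5.11% of those tested). Of these, 261 (2.49%) were higher and 274 (2.62%) lower in WT OE. The median log2 fold change was 0.84 in size among those that rose and 0.84 among those that fell, and 88 and 85 of them changed by more than 1. Over all tested genes the median was 0.02. From here on, a value that precedes an adjusted p in parentheses is a log2 fold change of WT OE over control unless another line is named, and a range in parentheses is that of the log2 fold change when each of the 8 libraries is left out in turn. At an unadjusted p under 0.05 there were 1275 higher (12.2%) and 1086 lower (10.4%) genes. The WT OE and control libraries did not overlap for 54.1% of the genes tested, so a lack of overlap alone says little with 2 libraries against 2. Of the genes called, 8 higher and 25 lower passed the filter on low values only through the line in which they were high. Among the genes named here these are *EIF3CL*, *KRT17*, *PADI4*, *PIK3CG* and *PTPRK*, high in WT OE, and *ALDOC*, *MAGEC2*, *PDK3*, *TFF1*, *TFF2* and *TFF3*, high in control. Such genes had to differ to be tested, so their values are a description. The smallest two-sided p of an exact permutation test of 2 against 2 is 0.333, so each call rests on the fit across all genes. The number of calls depended on having all 8 libraries in the fit: with 1 of them left out, it lay between 54 (without the first WT OE library) and 133 (without the second DSM OE library) for higher genes, and between 48 (without the second control library) and 152 (without either DSM OE library) for lower genes. The study's methods speak of biological replicates for its gene expression assays, without naming these libraries. The labels do not say whether the duplicates were separate cultures, so p-values measure the spread between these libraries, which may be technical.

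The direct contrast of WT OE with DSM OE called 99 genes higher (0.946%) and 68 lower (0.65%) in WT OE, and the contrast of WT OE with KD called 605 and 618 (5.78% and 5.91%). Against control, 367 genes were higher (3.51%) and 386 lower (3.69%) in KD, and 577 higher (5.51%) and 576 lower (5.5%) in DSM OE. Over the 261 genes called higher against control, the median log2 fold change over the same control libraries was 0.68 in DSM OE and 0.31 in KD, and over the 274 called lower it was -0.75 and -0.20. These 3 comparisons share the control libraries.

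**Figure D1:**
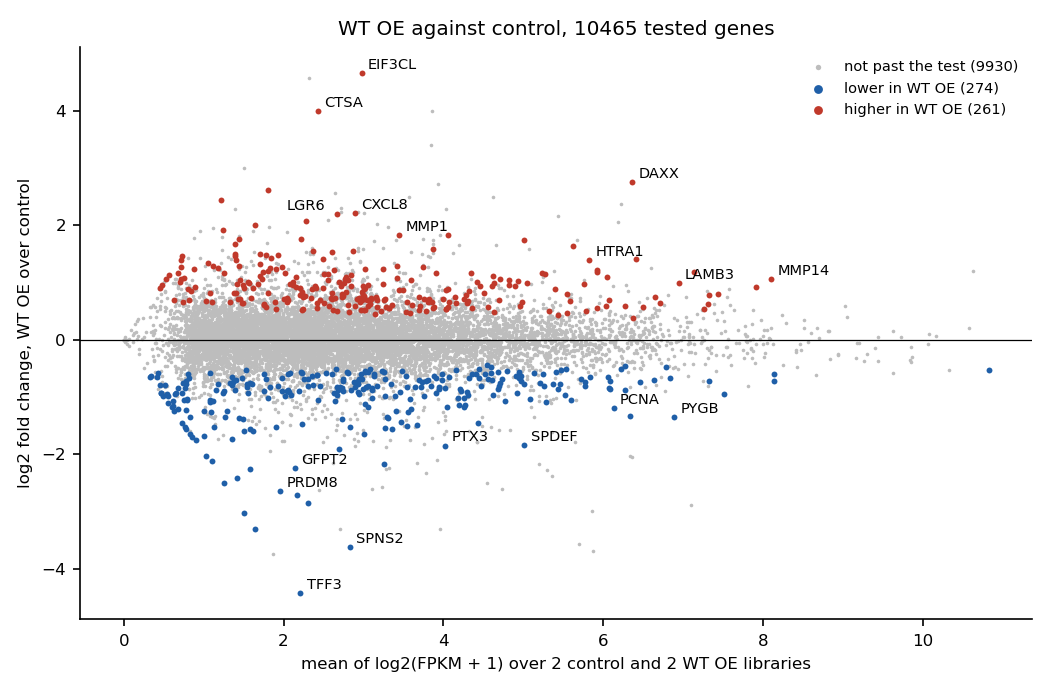
Mean of log2(FPKM + 1) over the 2 control and 2 WT OE libraries (x axis) against the log2 fold change of WT OE over control (y axis) for the 10465 genes tested. Red points are the 261 genes called higher, blue points the 274 called lower, grey points the rest. *DAXX* stands at 2.74, *EIF3CL* at 4.65 and *CTSA* at 3.98.

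WT OE differed from all 3 other lines in 37 genes, of which 22 were higher (0.21%) and 15 lower (0.143%) in every one of the 3 contrasts. The 3 contrasts share the WT OE libraries. Among the 22, *PIK3CG*, *PTPRK*, *PADI4* and *KRT17* passed the filter on low values only through WT OE, so they had to differ to be tested. The count of 22 is thus in part a description. With 1 library left out there were 3 to 9 higher genes, the fewest without either WT OE library, and 1 to 31 lower genes, the fewest without the first control and the most without the second WT OE library. Among those that were higher were genes of secreted and cell surface proteins: *LGR6*, *KISS1*, *HTRA1*, *MFAP2*, *PARM1* and *ADGRF5*. *LGR6*, which encodes a receptor for R-spondins, lies on chromosome 1 from 202193799 to 202319761. Its FPKM was 1.58 and 2.44 in control, 11.5 and 13.9 in WT OE, 0.706 and 1.08 in DSM OE and 0 and 0.011 in KD. The order WT OE, control, DSM OE and KD held without overlap of libraries, and the log2 fold change over control was 2.19 (standard error 0.19, adjusted p = 0.0063). Over DSM OE it was 2.85 (adjusted p = 0.00598). *LGR5*, a related receptor that did not pass the filter on low values, was listed at 0.354 and 0.417 in WT OE and at 0.00786 or less in every other library. It was chosen for mention after its values were seen.

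*HTRA1* encodes a secreted serine protease. It was read at 32.2 and 35.9 in control, 87.7 and 93.6 in WT OE, 41.2 and 45.3 in DSM OE and 26.2 and 29.1 in KD (log2 fold change over control 1.39, standard error 0.11, adjusted p = 0.00509). The WT OE libraries were the highest of the 8 by a wide gap. *MFAP2*, a gene of a microfibril protein, stood at 2.42 and 2.72 in control, 8.77 and 9.91 in WT OE, 4.57 and 4.82 in DSM OE and 1.87 and 1.65 in KD (1.53 over control, adjusted p = 0.00492). *KISS1*, which encodes the precursor of kisspeptin, had 4.76 and 3.8 in control and 12 and 10.8 in WT OE, against 0.747 and 0.327 in KD and 0.116 and 0.103 in DSM OE. It thus had its lowest values in DSM OE and its highest in WT OE, a log2 difference of 3.48 (adjusted p = 0.00368). Over control *KISS1* rose by 1.24 (adjusted p = 0.022). *PARM1*, which encodes a mucin-like membrane protein, went from 1.85 and 1.29 to 5.2 and 5.06 (1.26, adjusted p = 0.011), and *ADGRF5*, an adhesion receptor gene, from 6.37 and 5.18 to 11.1 and 13.4 (0.97, adjusted p = 0.026). Calls of *HTRA1*, *MFAP2* and *LGR6* over control were kept with any 1 library left out. *PARM1* lost its call without either WT OE library (1.1 to 1.42), *KISS1* without any 1 library other than those of KD (1.11 to 1.37) and *ADGRF5* without any 1 library (0.84 to 1.09).

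Other genes higher in WT OE than in each of the other lines ranged widely in level. *CAVIN2*, a gene of a caveolar coat protein, was read at 9.18 and 8.79 in control and 21.3 and 21.5 in WT OE (1.17, adjusted p = 0.00516), and at 3.6 and 3.89 in KD and 11.1 and 11.6 in DSM OE. *TFAP2C*, which encodes the transcription factor AP-2 gamma, was 22.3 and 22.7 in control, 47.6 and 43.6 in WT OE, 25.6 and 28.8 in DSM OE and 33.6 and 33.4 in KD (0.99 over control, adjusted p = 0.00861). *THBS1*, the thrombospondin-1 gene, reached 128 and 131 in WT OE against 75.4 and 77.9 in control and 32.7 and 35.7 in DSM OE (0.75 over control, adjusted p = 0.0463). *TSPYL5*, *PTPRK*, *PADI4*, *KRT17*, *GSPT2*, *GGT1* and *GCHFR* were also among the 22. *PIK3CG*, the gene of a catalytic subunit of phosphoinositide 3-kinase, was listed at 0 in the 6 other libraries and at 1.19 and 1.19 in WT OE. These 11 genes were named after their values were seen. *PIK3CG*, *PTPRK*, *PADI4* and *KRT17* passed the filter only through WT OE, so for them a call is no test. *CAVIN2* and *TSPYL5* kept their calls over control with any 1 library left out, while *GSPT2* lost it without either control or WT OE library (0.91 to 1.0), *GCHFR* without either control or KD or the second WT OE library (0.84 to 1.14) and *GGT1* without any 1 library (0.61 to 0.81). Further, *TFAP2C* lost it without either control library (0.92 to 1.05) and *THBS1* without any 1 library other than those of KD (0.72 to 0.77). An identifier without a symbol in the annotation used, ENSG00000277209, stood at 19.8 and 13.9 in control, 54 and 61.5 in WT OE, 21.5 and 22.3 in DSM OE and 17.7 and 20.1 in KD (1.73 over control, adjusted p = 0.00951). Its call over control was lost without the second WT OE library (1.49 to 1.97).

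**Figure D2:**
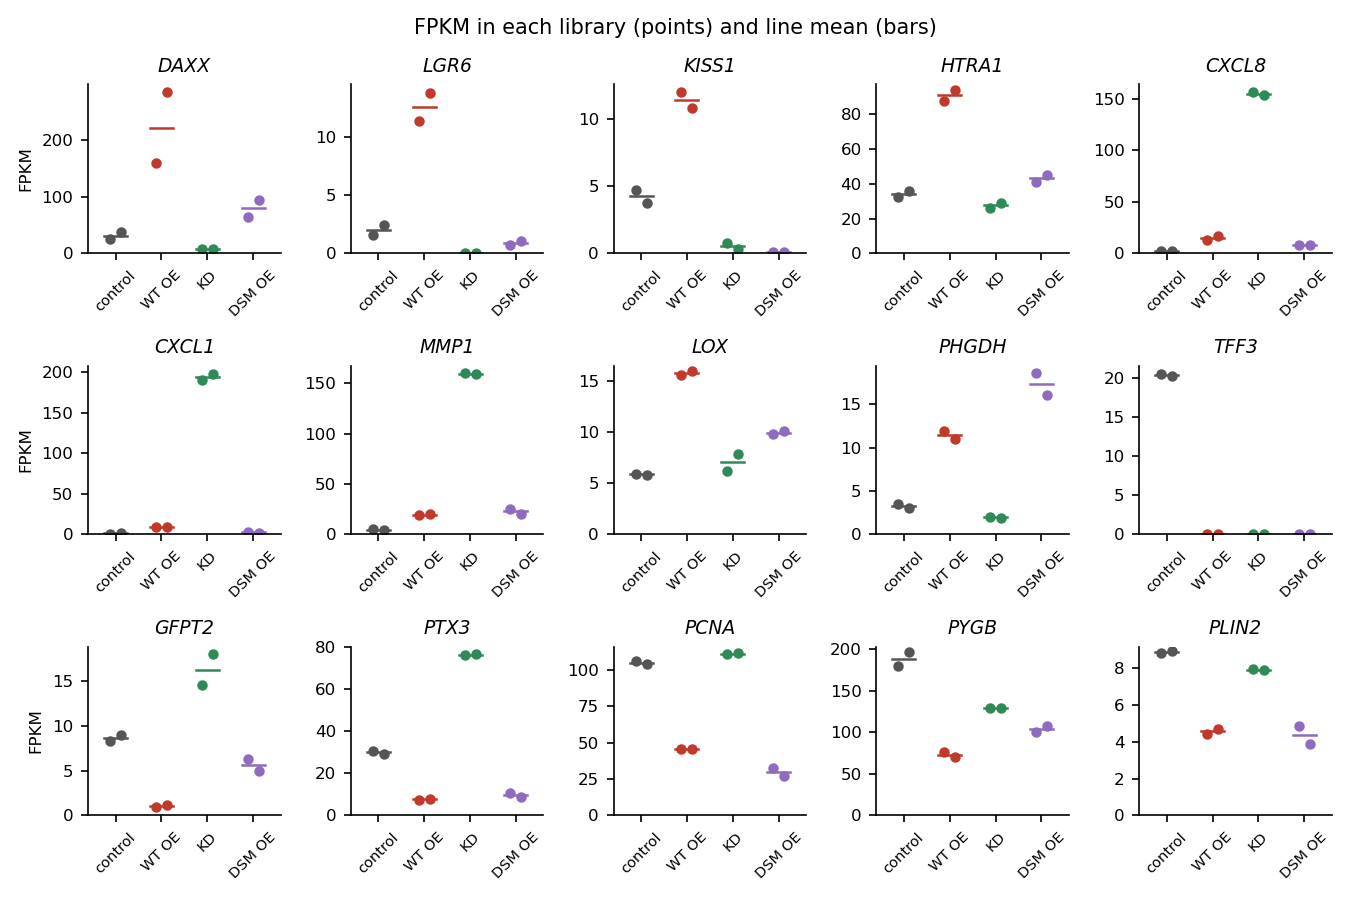
FPKM (y axis, from 0, with its own scale in each panel) of 15 genes in the 2 libraries (points) and as the mean (bar) of each of the 4 lines. *LGR6*, *KISS1* and *HTRA1* are highest in WT OE, *CXCL8*, *CXCL1* and *MMP1* stand above control in WT OE and far higher in KD, and *GFPT2* is lowest in WT OE.

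The genes lower in WT OE than in all 3 other lines included enzymes, proteases and chromatin proteins. *GFPT2*, which encodes a glutamine-fructose-6-phosphate transaminase of the hexosamine pathway, lies on chromosome 5 from 180300698 to 180353336. It was 8.28 and 8.96 in control, 0.968 and 1.11 in WT OE, 6.3 and 5 in DSM OE and 14.5 and 18 in KD. WT OE had the lowest and KD the highest values, and the fall against control was -2.24 on the log2 scale (standard error 0.15, adjusted p = 0.00392). *EHMT2*, the gene of the histone H3 lysine methyltransferase G9a, stood at 15.7 and 16.8 in control, 7.76 and 6.99 in WT OE, 15 and 18.7 in DSM OE and 13.5 and 13.5 in KD (-1.04, adjusted p = 0.0175). *PRSS3*, a trypsinogen gene, was 12 and 11 in control and 3.98 and 5.08 in WT OE (-1.18, adjusted p = 0.0198). *TFPI2*, a gene of a secreted protease inhibitor, was 15.2 and 14 in control, with 7.58 and 8.01 in WT OE (-0.82, adjusted p = 0.0126). Both were at their highest in KD, with 29.2 and 25.8 for *PRSS3* and 39.6 and 39.1 for *TFPI2*. *SPOCK1*, which encodes a matrix proteoglycan and is named after its values were seen, fell from 2.29 and 2.58 to 0.0365 and 0.0134 (-1.74, adjusted p = 0.00392). *COPS4*, a subunit gene of the COP9 signalosome, was 6.1 and 5.01 in control, 0.198 and 0.572 in WT OE, 7.77 and 7.24 in DSM OE and 4.91 and 3.45 in KD (-2.25, adjusted p = 0.0071). *NUMA1*, a spindle protein gene, was 18.4 and 18.9 in control and 6.95 and 4.96 in WT OE (-1.51, adjusted p = 0.0347). These values of *COPS4* and *NUMA1* stood below all 6 other libraries. *NPM3*, a gene of the nucleoplasmin family of histone chaperones, fell from 25.7 and 24.7 to 16 and 16.5 (-0.61, adjusted p = 0.0328). *GFPT2*, *COPS4* and *SPOCK1* kept their calls with any 1 library left out. *EHMT2* lost it without either control or WT OE library (-1.11 to -0.98), *PRSS3* and *TFPI2* without either control or the first WT OE library (-1.33 to -1.04 and -0.88 to -0.77), *NUMA1* without any 1 library other than those of KD (-1.72 to -1.3) and *NPM3* without any 1 library other than those of DSM OE (-0.63 to -0.58).

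Some of the largest differences were in genes that overlap others or have near copies, and their values are uncertain. This holds too for *PRSS3*, *GGT1*, *KRT17*, *CST1*, *SSX1*, *XAGE1B* and *PAGE5*, which belong to families with closely similar members. *SPNS2* and *SCARA3*, described below, overlap the expressed genes *MYBBP1A* and *CCDC25*. *EIF3CL*, a copy of the translation initiation factor gene *EIF3C*, had 0.958 and 0.256 in control, 33.5 and 44.2 in WT OE, 0.843 and 0.241 in DSM OE and 0.16 and 0.362 in KD (log2 fold change 4.65). It passed the filter only through WT OE, so no test is given for it. The values of *EIF3C* itself varied between duplicates, with 0.854 and 12.8 in WT OE and 14.6 and 2.17 in KD. The sum of both genes was 1.64 and 0.506 in control and 34.4 and 57 in WT OE. *CTSA*, *MRPS6* and *AP3M1* overlap or adjoin other genes and were called higher in WT OE, but there the control libraries stood apart from all 6 others. *CTSA*, a lysosomal carboxypeptidase gene that overlaps *PLTP*, was 0.351 and 0.36 in control, 24.7 and 16.9 in WT OE, 20.7 and 19.4 in DSM OE and 22.1 and 17.6 in KD. *MRPS6*, a mitochondrial ribosomal protein gene that overlaps *SLC5A3*, had 0.436 and 0.399 in control, 6.71 and 8.71 in WT OE, 7.22 and 6.83 in DSM OE and 8.53 and 8.54 in KD. *AP3M1*, an adaptor complex gene that overlaps *VCL*, had 1.01 and 0.218 in control and 5.49 and 5.02 in WT OE. Its call was lost without either WT OE library (1.64 to 2.36).

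Cytokine genes were among the largest increases. Counts for a gene list are over its members that passed the filter on low values, and a list is described by its counts and its median beside those of all tested genes. Of 27 NF-kB targets and cytokines tested, 6 rose in WT OE and none fell, against 2.49% and 2.62% of all genes: *CXCL8*, *CXCL1*, *CSF3*, *CCL2*, *TNFSF15* and *IL1B*. At an unadjusted p under 0.05, 9 were higher and 1 lower, where all genes had 12.2% and 10.4%. The median log2 fold change of the list was 0.12, against 0.02 for all genes. *CXCL8*, which encodes the neutrophil chemokine interleukin-8, lies on chromosome 4 from 73740569 to 73743716. Its FPKM was 2.81 and 2.12 in control, 13.2 and 17.1 in WT OE, 7.79 and 8.26 in DSM OE and 156 and 154 in KD. The WT OE libraries stood above control and DSM OE and far below KD. The log2 fold change was 2.22 (standard error 0.16, adjusted p = 0.00409). *CXCL1*, another chemokine gene of the same cluster on chromosome 4 from 73869393 to 73871308, was 1.07 and 1.74 in control, 9.04 and 8.94 in WT OE, 2.96 and 2.27 in DSM OE and 191 and 199 in KD (2.07, adjusted p = 0.00542). It was higher in WT OE than in DSM OE as well (1.47, adjusted p = 0.0233).

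*CSF3*, the gene of granulocyte colony-stimulating factor, was 0.0508 and 0.411 in control, 3.17 and 4.02 in WT OE, 0.228 and 0.413 in DSM OE and 29.5 and 25.3 in KD (1.91, adjusted p = 0.00951). *CCL2*, the monocyte chemoattractant gene, went from 0.608 and 0.522 in control to 2.99 and 3.9 in WT OE (1.5, adjusted p = 0.0071). *TNFSF15*, a gene of the tumor necrosis factor family, stood at 7.7 and 8.08 in control, 29.6 and 31.2 in WT OE, 55.6 and 50.8 in DSM OE and 34 and 24.5 in KD (1.82, adjusted p = 0.00655). The comparisons of KD and DSM OE with control share the control libraries with that of WT OE, so their values are given beside it and no overlap is counted. *IL1B*, which encodes interleukin-1 beta, was 0.395 and 0.276 in control and 1.06 and 1.14 in WT OE (0.65, adjusted p = 0.0323), a small difference beside its 5.87 in KD. Other members of the list did not pass. *CXCL2* was listed at 0.0998 and 0.0989 in control and 0.0622 and 0.0832 in WT OE, and *TNFAIP3*, a feedback inhibitor of NF-kB, at 0.424 and 0.565 in control and 0.565 and 0.661 in WT OE. In KD *CXCL2* reached 5.83 and 7.08 and *TNFAIP3* 11.5 and 6.09. With any 1 library left out 5 members were called higher: *CXCL8*, *CXCL1*, *CSF3*, *TNFSF15* and *CCL2* kept their calls, and *IL1B* lost it each time (0.59 to 0.72).

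Promoter sequence was read for the cytokine genes, since 6 of them moved together. RefSeq promoters of GRCh38.p14, from 250 bases before to 50 after the start of a gene, were matched for 8353 of the genes tested, for 204 of those called higher and 204 of those called lower, and for 4 of the 6 cytokine genes. The motifs searched, on both strands, were the NF-kB consensus GGGRNNYYCC and the AP-1 element TGANTCA, which reads alike on both. Here R is A or G, Y is C or T and N is any base. A site that departs from these letters is not found, so a promoter without a match may still hold one. *CXCL1* held the NF-kB consensus, on both strands with matches that overlap, and *CXCL8* and *TNFSF15* held the AP-1 element. The windows are shown, since they belong to cytokine genes that rose, 5′ to 3′ on the strand of the gene, with the match in capitals.
CXCL1: tggaactccGGGAATTTCCctggcccgg
CXCL8: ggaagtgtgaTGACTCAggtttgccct
TNFSF15: ctctttcttcTGAGTCAccctgtcctt
The first lies at chr4:73869305-73869332, the second at chr4:73740422-73740448, both on the plus strand, and the third at chr9:114792634-114792660 on the minus strand. The NF-kB consensus was in 12.3% of the promoters of genes called higher, 14.7% of those called lower and 13.1% of those of all tested genes. The AP-1 element was in 7.84% of the promoters of genes called higher and 9.31% of those called lower, against 4.32% over all tested genes and 7.76% over the whole table of 27305 promoters. A match is a description of the letters in the window and not a measured site.

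Some mesenchymal markers rose in WT OE. Of 11 tested, 4 were called higher (36.4%, against 2.49% of all genes) and none lower: *LOX*, *ZEB1*, *AXL* and *SNAI2*. The median of the list was 0.52, and 10 of 11 had a log2 fold change above 0. *LOX*, the gene of the collagen cross-linking enzyme lysyl oxidase, was 5.87 and 5.82 in control, 15.5 and 16 in WT OE, 9.76 and 10.1 in DSM OE and 6.23 and 7.81 in KD. The duplicates were close, and WT OE was the highest of the 4 lines (log2 fold change 1.29, standard error 0.12, adjusted p = 0.00753). *ZEB1* and *SNAI2* encode transcription factors that repress epithelial genes. They rose from 6.23 and 5.35 to 8.78 and 9.66 (0.59, adjusted p = 0.0456) and from 5.89 and 5.68 to 8.66 and 8.81 (0.52, adjusted p = 0.0449). *AXL*, a receptor tyrosine kinase gene, rose from 123 and 130.0 to 194 and 173 (0.53, adjusted p = 0.0483). *VIM*, the vimentin gene, was 788 and 879.9 in control and 1081 and 682 in WT OE (adjusted p = 0.989). *LOX* kept its call with any 1 library left out, while *ZEB1*, *SNAI2* and *AXL* lost theirs without any 1 library (0.50 to 0.69, 0.50 to 0.54 and 0.45 to 0.62), so that 1 member was then called.

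Extracellular proteases and their inhibitors moved in both directions. Of 18 tested, 5 rose (27.8%, against 2.49% of all genes) and 2 fell (11.1%, against 2.62%), with a median of 0.47. Those that rose were *MMP1*, *SERPINE2*, *MMP14*, *SERPINB2* and *ADAM8*, and those that fell *PLAT* and *TIMP3*. *MMP1*, the interstitial collagenase gene on chromosome 11 from 102789919 to 102798160, was 5.59 and 4.11 in control, 18.8 and 20.4 in WT OE, 25 and 20.8 in DSM OE and 159.9 and 159 in KD. It was lowest in control and highest in KD, and its log2 fold change in WT OE was 1.83 (standard error 0.16, adjusted p = 0.00579). *MMP14*, which encodes a membrane-bound metalloproteinase, rose from 181 and 198 to 419.6 and 372 (1.06, adjusted p = 0.0105), and *ADAM8*, another membrane protease gene, from 28.2 and 32 to 61.2 and 51.3 (0.88, adjusted p = 0.0227). *SERPINE2*, a gene of an inhibitor of thrombin and plasminogen activators, rose from 7.46 and 7.74 to 19 and 20.7 (1.28, adjusted p = 0.00579). *SERPINB2*, which encodes an inhibitor of plasminogen activators, was listed at 0 in both control libraries and at 0.763 and 1 in WT OE. *PLAT*, the tissue plasminogen activator gene, fell from 109 and 118 to 71.8 and 63.1 (-0.74, adjusted p = 0.029). *TIMP3*, a gene of a metalloproteinase inhibitor, fell from 142 and 143 to 86.6 and 92.9 (-0.67, adjusted p = 0.0174). With 1 library left out the list had 2 to 5 higher and 0 to 2 lower calls. *MMP1* and *SERPINE2* kept theirs, *MMP14* lost it without either control or the first WT OE library (0.97 to 1.14) and *SERPINB2* without any 1 library other than those of DSM OE. *ADAM8* lost it without either control, KD or the first WT OE library (0.75 to 1.0), *PLAT* without any 1 library other than those of DSM OE (-0.84 to -0.65) and *TIMP3* without either control or WT OE library (-0.71 to -0.62).

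Among 27 collagen and matrix genes 4 rose (14.8%, against 2.49% of all genes) and 2 fell (7.41%, against 2.62%), with a median of 0.25. *LOX* and *THBS1*, described above, were among those that rose. *LAMB3*, a laminin-332 chain gene, was 81.5 and 91.5 in control, 165 and 179 in WT OE, 274 and 281 in DSM OE and 129 and 131 in KD (0.99, adjusted p = 0.00753). *FBN1*, the fibrillin-1 gene, went from 1.89 and 1.4 to 3.63 and 3.63 (0.82, adjusted p = 0.0428). *COL3A1*, a fibrillar collagen gene, was 2.54 and 2.01 in control, 0.0105 and 0.00866 in WT OE, 0.018 and 0.00306 in DSM OE and 2.06 and 2.42 in KD. It was thus near 0 in both overexpression lines (-1.69 over control in WT OE, adjusted p = 0.00491). *COL6A1*, a collagen VI chain gene, fell from 26.8 and 28.6 to 12.4 and 11.7 (-1.14, adjusted p = 0.00643). *LAMB3*, *COL3A1* and *COL6A1* kept their calls with any 1 library left out, and *FBN1* lost it each time (0.68 to 0.95).

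Genes of serine synthesis and of tRNA charging were among those that rose. Of 29 ATF4 targets and amino acid metabolism genes, 6 were higher (20.7%, against 2.49% of all genes) and 2 lower (6.9%, against 2.62%), with a median of 0.53. At an unadjusted p under 0.05 the counts were 15 and 5, where all genes had 12.2% and 10.4%. ATF4 is the transcription factor of the integrated stress response. *PHGDH*, which encodes the first enzyme of serine synthesis, lies on chromosome 1 from 119711934 to 119744215. It was 3.48 and 3.06 in control, 12 and 11 in WT OE, 18.6 and 16 in DSM OE and 2.06 and 1.88 in KD. Both overexpression lines stood above control and KD, and the log2 fold change in WT OE was 1.55 (standard error 0.12, adjusted p = 0.00509). *PSAT1*, the next enzyme of the pathway, was 40.9 and 36.7 in control, 92.5 and 91.2 in WT OE, 149 and 139 in DSM OE and 45 and 44.4 in KD (1.22, adjusted p = 0.00484). It was lower in WT OE than in DSM OE (difference -0.65, adjusted p = 0.039). *SHMT2*, which makes glycine from serine in mitochondria, rose from 15 and 17.4 to 31.5 and 26.9 (0.81, adjusted p = 0.0309). The tRNA synthetase genes *GARS1* and *WARS1* rose from 45.9 and 42.4 to 95.3 and 95.4 (1.09, adjusted p = 0.00553) and from 15.9 and 13.9 to 26.3 and 32.8 (0.93, adjusted p = 0.028).

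*CEBPG*, a gene of a partner of ATF4, rose from 10.2 and 9.08 to 14.7 and 15.4 (0.59, adjusted p = 0.0329). Outside this list, *CTH*, which makes cysteine from cystathionine, rose from 1.38 and 2.84 to 8.69 and 7.02 (1.54, adjusted p = 0.0413). *GDF15* and *TRIB3* went the other way. *GDF15*, a stress-induced cytokine gene, was 14.3 and 16.7 in control, 5.56 and 3.9 in WT OE, 17.1 and 19.6 in DSM OE and 1.65 and 1.2 in KD (-1.54, adjusted p = 0.0174). *TRIB3*, a pseudokinase gene, fell from 18.3 and 20 to 12.3 and 10.5 (-0.70, adjusted p = 0.0304). It lies in the first 30 Mb of chromosome 20, described below, where the median of the tested genes was -0.68. In DSM OE *TRIB3* was 16.6 and 17.1 (-0.17 over control), where the median of those genes was -0.63. *PHGDH*, *PSAT1* and *GARS1* kept their calls with any 1 library left out, while *GDF15* lost it without either control or the second WT OE library (-1.75 to -1.33) and *CTH*, *SHMT2*, *CEBPG* and *TRIB3* without any 1 library (1.2 to 1.89, 0.70 to 0.93, 0.52 to 0.67 and -0.81 to -0.59). *WARS1* lost it without any 1 library other than the second of DSM OE (0.78 to 1.09). Of 22 chaperones and unfolded protein response genes, *XBP1* and *HERPUD1* rose by 0.50 and 0.49 (adjusted p = 0.0342 and 0.0496) and *SDF2L1* fell by 0.91 (adjusted p = 0.0428). These were 9.09% higher and 4.55% lower, against 2.49% and 2.62% of all genes, with a median of 0.07. *XBP1* and *HERPUD1* were lost without any 1 library (0.45 to 0.54 and 0.45 to 0.53) and *SDF2L1* without any 1 library other than those of DSM OE (-1.04 to -0.78).

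Genes of cholesterol synthesis were called about as often as all genes were. Of the 19 genes, none was called higher (2.49% of all genes) and *EBP* was called lower (5.26%, against 2.62% of all genes), while 2 were higher and 1 lower at an unadjusted p under 0.05. The median log2 fold change was -0.04, with 9 above and 10 below 0. *HMGCS1*, the HMG-CoA synthase gene, was 33.1 and 28.5 in control and 27.7 and 36.8 in WT OE, with overlapping libraries (0.06, standard error 0.20, adjusted p = 0.907). The highest log2 fold changes of the list were those of *NSDHL*, a sterol dehydrogenase gene (26 and 23.1 to 40.4 and 33.1, 0.56, adjusted p = 0.0804), and of *MVK*, the mevalonate kinase gene, whose duplicates differed widely (8.68 and 0.237 in control and 1.49 and 7.47 in WT OE). *EBP*, a sterol isomerase gene, was 26.9 and 15.4 in control and 8.04 and 5.43 in WT OE (-1.49, adjusted p = 0.045). That call was lost on leaving out any library other than the second control (-1.87 to -1.1).

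Against DSM OE, *HSD17B7*, a ketosteroid reductase gene of the pathway, was called higher in WT OE. It was 5.81 and 5.95 in WT OE, against 2.99 and 2.07 in DSM OE (difference 0.97, adjusted p = 0.0458). In control it was 6.29 and 5.83, and it did not pass the test between WT OE and control (adjusted p = 0.92). The log2 difference of *DAXX* mRNA between these lines was 1.43, so the mutation and the level of *DAXX* cannot be told apart there.

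In fatty acid synthesis, 16 of 19 listed genes passed the filter on low values. Of these *ME1* rose (6.25%, against 2.49% of all genes) and *ELOVL5* and *SLC25A1* fell (12.5%, against 2.62%), with a median of -0.19. *ME1*, which makes cytosolic NADPH as malic enzyme, was 5.48 and 4.41 in control, 9.35 and 10.9 in WT OE, 10.6 and 11.4 in DSM OE and 5.17 and 6.01 in KD (0.91, adjusted p = 0.0303). *ELOVL5*, a fatty acid elongase gene, went from 28.7 and 25.9 to 18.4 and 17.1 (-0.60, adjusted p = 0.0342). *SLC25A1*, which exports citrate from mitochondria, went from 88.8 and 86.8 to 63.7 and 59.6 (-0.50, adjusted p = 0.0474). These 3 calls were each lost with any 1 library left out (0.78 to 1.04, -0.67 to -0.52 and -0.55 to -0.46). *FASN*, the fatty acid synthase gene, could not be read closely, since its duplicates in WT OE were 12.5 and 118, against 176 and 147 in control (log2 fold change -2.02, standard error 1.25, adjusted p = 0.402). The desaturase gene *SCD* was 372 and 353 in control, with 307 and 335 in WT OE (-0.18 with a standard error of 0.08, adjusted p = 0.275). *ACLY*, the ATP citrate lyase gene, was 97.7 and 123 in control, with 121 and 111 in WT OE (0.08 with a standard error of 0.34). *ACACA*, the acetyl-CoA carboxylase gene, stood lower in WT OE at 7.56 and 6.58 against 10.9 and 10.2 (-0.52, adjusted p = 0.0688) and *ACSS2*, an acetyl-CoA synthetase gene, higher at 27.2 and 25.2 against 20.5 and 17.7 (0.44, adjusted p = 0.0794), and neither passed. *FADS1* and *FADS2*, desaturase genes that lie side by side, had -0.62 and -0.25 (adjusted p = 0.0618 and 0.752).

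Of the 11 genes of SREBP processing and sterol uptake that passed the filter (13 listed), *MBTPS1* rose (9.09%, against 2.49% of all genes) and none fell. The median was 0.16, and 3 were higher at an unadjusted p under 0.05, where all genes had 12.2%. *MBTPS1*, which encodes the protease that makes the first cut in SREBP, was 8.5 and 10.8 in control, 15.6 and 17.2 in WT OE, 18.1 and 18.4 in DSM OE and 14.3 and 14.4 in KD. Control was the lowest line (0.72, adjusted p = 0.0406), and the call was lost with any 1 library left out (0.56 to 0.87). *SREBF1* had 18.5 and 22.9 in control, 17.4 and 19.7 in WT OE (-0.15 with a standard error of 0.15, adjusted p = 0.623) and *SREBF2* 21.2 and 34.6 in control, with 37.1 and 34.9 in WT OE (0.39 with a standard error of 0.26, adjusted p = 0.438). Their libraries overlapped between the lines for *SREBF1*, and for *SREBF2* the duplicates of control were far apart. *SCAP*, the SREBP escort gene, was 11.3 and 13.3 in control and 19.1 and 16.5 in WT OE (0.50, adjusted p = 0.0765). *NPC2*, which carries cholesterol out of lysosomes, was 26 and 23.9 in control, with 34.8 and 35.2 in WT OE (0.47, adjusted p = 0.0959).

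**Figure D3:**
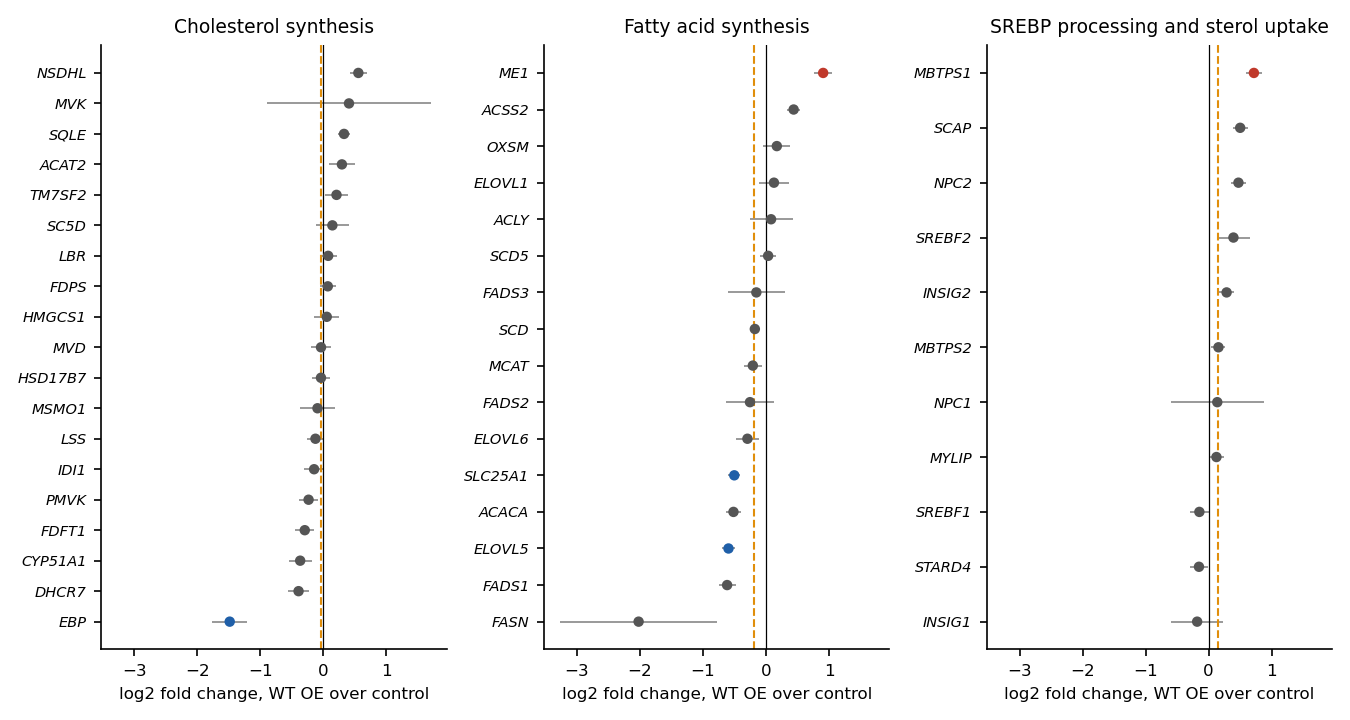
Log2 fold change of WT OE over control (x axis, points, with the standard error of the fit as bars) for the tested genes of cholesterol synthesis, fatty acid synthesis, and SREBP processing and sterol uptake. Red marks a gene called higher, blue a gene called lower, the dashed line the list's median, which is -0.04, -0.19 and 0.16 in the 3 panels.

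Other lipid genes changed singly. *G0S2*, which encodes an inhibitor of triglyceride lipolysis, was 26.7 and 27.2 in control, 95.1 and 77 in WT OE, 145 and 162 in DSM OE and 83.4 and 77.8 in KD. Control was the lowest of the 4 lines (1.63, standard error 0.13, adjusted p = 0.00509). *PLIN2*, a lipid droplet coat gene, was 8.82 and 8.94 in control, 4.45 and 4.73 in WT OE, 4.85 and 3.87 in DSM OE and 7.94 and 7.93 in KD. Both overexpression lines were below control and KD without overlap (-0.82 in WT OE, adjusted p = 0.0243). These were the 2 calls among 11 lipid droplet and lipolysis genes (9.09% each way, against 2.49% and 2.62% of all genes), with a median of -0.02. *CRLS1*, the cardiolipin synthase gene, was the 1 call among 27 genes of glycerolipid and phospholipid synthesis (3.7%, against 2.62% of all genes lower). It was 5.31 and 5.24 in control and 2.53 and 3.29 in WT OE (-0.69, adjusted p = 0.0474). The gene lies in the first 30 Mb of chromosome 20, described below, where the median of the tested genes was -0.68. *SPNS2*, the sphingosine-1-phosphate exporter gene, was 23.2 and 24.5 in control, 1 and 1.05 in WT OE, 3.41 and 3.65 in DSM OE and 0.985 and 0.768 in KD (-3.61, adjusted p = 0.000264). It was the 1 call among 22 sphingolipid genes (4.55%, against 2.62% of all genes lower). *ANGPTL2*, a secreted angiopoietin-like protein gene, went from 6.63 and 8.33 to 26.7 and 22.3 (1.59, adjusted p = 0.00687). None of 8 LXR targets and none of 20 fatty acid oxidation genes passed limma's test, where 5.11% of all genes did. Of these members, 0 and 2 had an unadjusted p under 0.05, where all genes had 12.2% higher and 10.4% lower. *G0S2*, *SPNS2* and *ANGPTL2* kept their calls with any 1 library left out, *PLIN2* lost it without either control, KD or WT OE library (-0.86 to -0.79), and *CRLS1* without any 1 library (-0.83 to -0.55).

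Genes of mucosal secretion were among the largest falls. Of a list of 11 trefoil factors, secreted mucins and their regulators, 5 passed the filter on low values, *TFF1*, *TFF2* and *TFF3* only through the control line and *AGR2* through control and 1 KD library, so that their count is a description. These 5 fell: *TFF1*, *TFF2*, *TFF3*, *SPDEF* and *AGR2*. Trefoil factors are small secreted peptides that protect mucosal surfaces. *TFF3*, on chromosome 21 from 42311667 to 42315409, was 20.6 and 20.3 in control and listed at 0 in all 6 other libraries. *TFF2* was 8.29 and 9.4 and *TFF1* 7.03 and 7.16 in control, and both were listed at 0 in the 6 others as well. No fold change is given against a value of 0, and the list's median, which falls on such a gene, is left out. *SPDEF*, an epithelial transcription factor gene, was 55.8 and 64.4 in control, 18.4 and 14.1 in WT OE, 23.9 and 23.6 in DSM OE and 18.4 and 17.2 in KD (-1.83, adjusted p = 0.00542). *AGR2*, which encodes a disulfide isomerase of secretory cells, was 2.77 and 2.77 in control and 0.452 and 0.764 in WT OE (-1.24, adjusted p = 0.0198). It lost its call without either control or WT OE library (-1.38 to -1.1). *SPDEF* was also called lower in KD and in DSM OE against the same control libraries. For the others the filter on low values fixed such calls in whole or in part, so none is given.

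Other large falls had the same shape, with both control libraries above the 6 others. *MISP*, an actin-binding protein gene, was 11.1 and 13.7 in control, 1.12 and 0.607 in WT OE, 1.13 and 1.12 in DSM OE and 0.295 and 0.442 in KD (-2.85, adjusted p = 0.00313). *EEF1A2*, a gene of a translation elongation factor, was 9.31 and 12 in control and 0.973 and 0.563 in WT OE (-2.72, adjusted p = 0.00313), with 0.873 and 0.853 in KD. *SOD3*, the extracellular superoxide dismutase gene, was 15.4 and 17.7 in control and 6.28 and 3.91 in WT OE (-1.55, adjusted p = 0.0204), with 6.93 and 6.09 in KD. *ADIRF*, an adipogenesis regulatory factor gene, was 19.6 and 19.1 in control, 3.09 and 4.03 in WT OE, 2.19 and 0.875 in DSM OE and 5.1 and 5.23 in KD (-2.16, adjusted p = 0.0156). *SCARA3*, a scavenger receptor gene, was 5.07 and 5.33 in control, 0.0879 and 0.227 in WT OE, 0.259 and 0.886 in DSM OE and 1.33 and 1.52 in KD (-2.42, adjusted p = 0.00579). *ALDOC*, the aldolase C gene, was 3.08 and 3.92 in control and at 0.0342 or less in every other library. It passed the filter only through control, so no test is given for it. The call of *SOD3* was lost without any 1 of the control or KD libraries (-1.84 to -1.27) and *ADIRF* without either control or WT OE library (-2.31 to -2.01).

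Other genes called lower were so in DSM OE against control as well, and not in KD. *PTX3*, which encodes a secreted pattern recognition protein, lies on chromosome 3 from 157436850 to 157443633. It was 30.5 and 29.3 in control, 7.46 and 7.7 in WT OE, 10.5 and 8.92 in DSM OE and 76.1 and 76.8 in KD. Both overexpression lines were below control and KD above it (-1.85 in WT OE, standard error 0.10, adjusted p = 0.0022). *PRDM8*, a gene of a zinc finger transcription regulator, was 8.88 and 8.54 in control, 0.628 and 0.486 in WT OE, 0.724 and 1.1 in DSM OE and 11.9 and 10.5 in KD (-2.64, adjusted p = 0.00189). *NAP1L5*, an imprinted gene, was 0.592 and 0.567 in control, 0.00997 and 0.0233 in WT OE, 0 and 0.0245 in DSM OE and 2.99 and 2.86 in KD (-0.64, adjusted p = 0.028). It was the 1 call among 15 imprinted genes (6.67%, against 2.62% of all genes lower). *PTX3* and *PRDM8* kept their calls with any 1 library left out, and *NAP1L5*, under an FPKM of 1 in control and in both overexpression lines, lost it without any 1 library (-0.65 to -0.62).

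Many of the lower genes lay together at the start of chromosome 20. This segment was chosen after the values were seen. Of 104 tested genes that start in its first 30 Mb (GRCh38.p14), 39 were called lower in WT OE (37.5%, against 2.62% of all genes) and 1 higher. In all, 95 of the 104 had a log2 fold change below 0, and their median was -0.68. On the rest of the chromosome 5 of 204 were lower (2.45%) and 3 higher, with a median of -0.09. The tested genes of the segment run from *C20orf96*, which starts at 270863, to *ZNF337*, which ends at 25696853, and the next tested gene is *HM13* at 31514442. In DSM OE the median of the same genes over control was -0.63 and in KD 0.03. The median, over the segment's genes, of a library's log2 value less the gene's mean over the 8 libraries was -0.35 and -0.31 in WT OE, with -0.25 and -0.29 in DSM OE, and stood at 0.32 and 0.33 in control and at 0.31 and 0.36 in KD. Both duplicates of each line thus stood together, with the 2 overexpression lines on one side and control and KD on the other. The DNA of the lines was not analysed here. Without these genes 235 of 10361 were lower and 260 higher in WT OE.

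The genes of the segment have unrelated roles. *PCNA*, the sliding clamp of DNA replication, starts at 5114953 and was 106 and 104 in control, 45.4 and 45.3 in WT OE, 32.4 and 27.3 in DSM OE and 110.5 and 112 in KD (-1.19, standard error 0.10, adjusted p = 0.00579). *PYGB*, a glycogen phosphorylase gene that starts at 25248085, was 179.5 and 197 in control and 76 and 70.3 in WT OE (-1.35, adjusted p = 0.00392). *CENPB*, which encodes a centromere protein and starts at 3783851, was 65.5 and 72.6 in control, with 34.3 and 31.2 in WT OE (-1.05, adjusted p = 0.0208). *XRN2*, a nuclear exonuclease gene that starts at 21303331, was 41.8 and 40.4 in control, with 22.7 and 24.8 in WT OE (-0.77, adjusted p = 0.0193). WT OE was close to DSM OE in *SRXN1*, the sulfiredoxin gene, with 25.6 and 24.4 in control, 11.7 and 11.9 in WT OE, beside 12.2 and 11.9 in DSM OE (-1.02 in WT OE, adjusted p = 0.00966). *CST1*, a secreted cystatin gene, fell further, from 11.5 and 11.6 to 2.35 and 2.32 (-1.92, adjusted p = 0.00249), with 3.98 and 4.76 in DSM OE. *RBCK1*, which encodes a subunit of the linear ubiquitin ligase, and *SNPH*, the syntaphilin gene, were among the called genes that differed from this. *RBCK1* was 16.9 and 17.8 in control, 7.67 and 6.29 in WT OE, 20.1 and 18.3 in DSM OE and 16.6 and 16 in KD (-1.21, adjusted p = 0.00851). For *SNPH* the values were 2.47 and 2.1 in control, 0.858 and 1.02 in WT OE, 2.29 and 2.29 in DSM OE and 2.14 and 2.08 in KD (-0.76, adjusted p = 0.0261). Both were called lower in WT OE than in all 3 other lines. *CHGB*, the chromogranin B gene, was the 1 gene called higher, listed at 0 in control and KD, at 0.909 and 1.27 in WT OE, and at 1.36 and 1 in DSM OE.

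**Figure D4:**
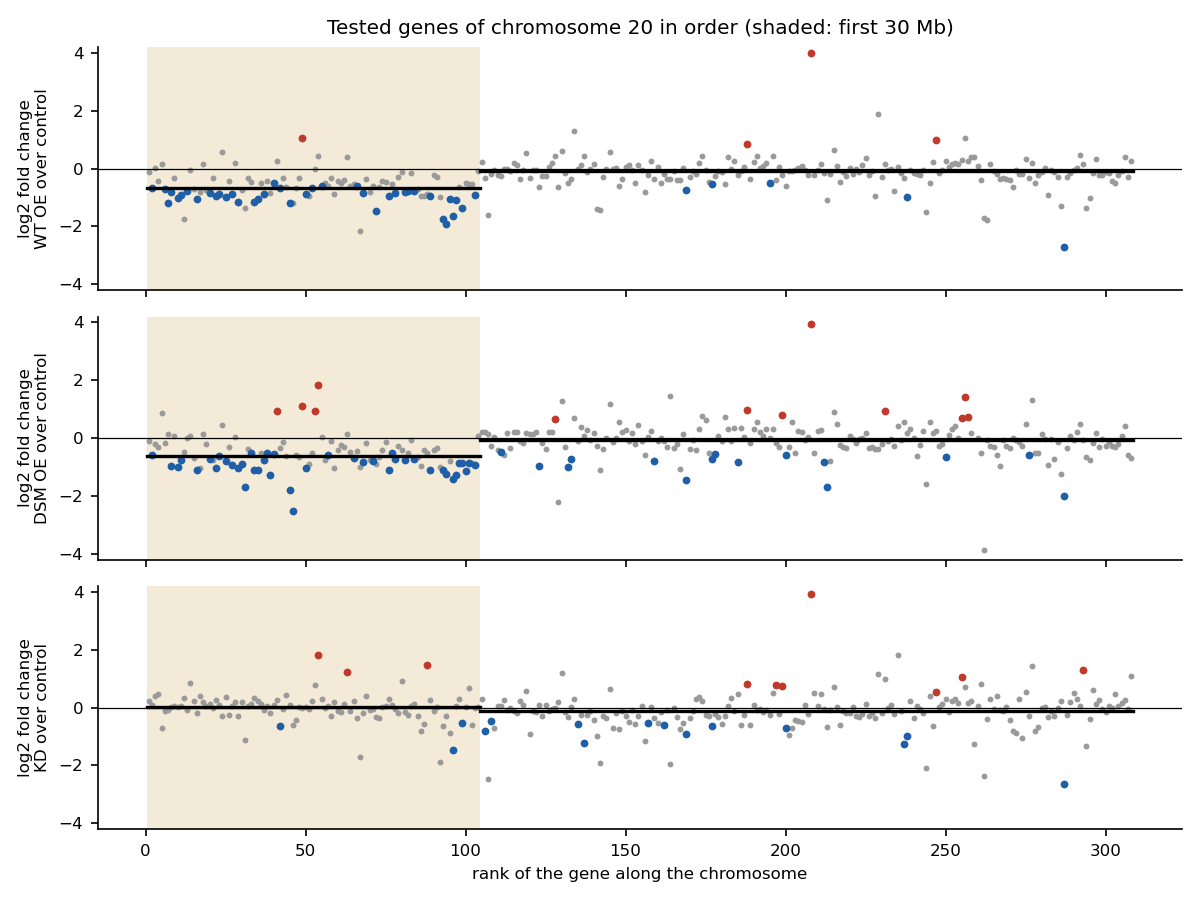
Log2 fold change over control (y axis) of the 308 tested genes of chromosome 20 by their rank along it (x axis), in WT OE, DSM OE and KD. Red and blue points passed the test as higher or lower, black bars are the medians of the first 30 Mb (shaded, 104 genes) and of the rest, and the shaded genes lie below 0 in both overexpression lines (medians -0.68 and -0.63) and around 0 in KD (0.03).

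The count of lower genes in this segment depended on the fit, while the median moved less. It was 12 with a replicate block and 0 in a fit of the WT OE and control libraries alone. With 1 library left out it was 9 and 6 without the first and second control library, 10 and 13 without those of WT OE, 21 and 22 without those of KD, and 28 without either of DSM OE, with medians of -0.71 to -0.65. Of its single genes, *PCNA*, *PYGB* and *CST1* kept their calls with any 1 library left out, as did *MRPS26*, a mitochondrial ribosomal protein gene (32.3 and 34.4 in control and 15.9 and 17.3 in WT OE, -0.97, adjusted p = 0.00753). *CENPB* and *XRN2* lost the call without any 1 library other than those of DSM OE (-1.13 to -0.98 and -0.83 to -0.70), *SNPH* without any 1 library (-0.84 to -0.68) and *CHGB* without either control or WT OE library. *RBCK1* lost its call without the second control library (-1.33 to -1.08) and *SRXN1* without either control or the first WT OE library (-1.05 to -0.99).

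The genome was also read in 201 windows of 10 Mb with at least 20 tested genes. On chromosome 9, from 30 to 40 Mb, 13 of 66 genes were lower (19.7%, against 2.62% of all genes) and none higher. The median was -0.39 in WT OE, -0.34 in DSM OE and 0.03 in KD. *POLR1E*, an RNA polymerase I subunit gene, was 15.4 and 14.4 in control, 5.2 and 5.11 in WT OE, with 4.68 and 4.63 in DSM OE (-1.37, adjusted p = 0.00392), and *STOML2*, a mitochondrial membrane protein gene, was 64.8 and 67.4 in control, 41.2 and 40.1 in WT OE, with 43.7 and 43.6 in DSM OE (-0.69, adjusted p = 0.0141). On chromosome X, from 100 to 110 Mb, 6 of 35 were higher (17.1%, against 2.49% of all genes) and none lower. The median was 0.52 in WT OE, 0.33 in DSM OE and 0.10 in KD. On chromosome 8, from 120 to 130 Mb, 4 of 23 were higher (17.4%, against 2.49% of all genes) and none lower. The median was 0.29 in WT OE, 0.36 in DSM OE and 0.20 in KD. On chromosome 9, from 100 to 110 Mb, 3 of 21 were lower (14.3%) and none higher (median -0.26). On chromosome 11, from 60 to 70 Mb, 13 of 174 were lower (7.47%, against 2.62% of all genes) and none higher (median -0.28). Other windows with shares above that of chromosome 11 are not listed. *POLR1E* kept its call with any 1 library left out, and *STOML2* lost it without either control or WT OE library (-0.72 to -0.66). These windows and genes too were chosen after their values were seen.

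Some genes of DNA replication fell. Of 30 tested, *PCNA*, *MCM2* and *MCM3* were lower (10%, against 2.62% of all genes) and none was higher. A log2 fold change below 0 was found in 24 of 30, and the median was -0.26. *PCNA* and *GINS1*, which did not pass, lie in the chromosome 20 segment. *MCM2* and *MCM3*, subunits of the replicative helicase, lie on chromosomes 3 and 6. They went from 20.9 and 27.2 to 13.8 and 11.8 (-0.86, adjusted p = 0.0456) and from 47 and 60.6 to 31.6 and 29.7 (-0.78, adjusted p = 0.0422). *MCM2* was lost without any 1 library (-1.04 to -0.68) and *MCM3* without any 1 library other than the first control (-0.96 to -0.60). No gene of mitosis passed limma's test among 30, where 5.11% of all genes did. With an unadjusted p under 0.05 there were 1 higher and 2 lower, where all genes had 12.2% and 10.4%. The median was -0.14.

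Interferon and antigen presentation genes were called in both directions. Of 27 interferon-stimulated genes *STAT2* and *IFI6* rose (7.41%, against 2.49% of all genes) and *BST2* fell (3.7%, against 2.62%), with a median of 0.21. At an unadjusted p under 0.05 there were 10 higher and 5 lower, where all genes had 12.2% and 10.4%. *IFI6* went from 13.6 and 14.4 to 22.6 and 24.6 (0.71, adjusted p = 0.0198), and *STAT2*, a transducer of interferon signals, from 5.66 and 4.27 to 9.16 and 10 (0.84, adjusted p = 0.0456). *BST2*, whose product tethers virions, was 70.5 and 71.6 in control, 38.8 and 41.9 in WT OE, with 20.3 and 14.9 in DSM OE (-0.80, adjusted p = 0.0449). Of 15 genes of MHC class I presentation, the immunoproteasome genes *PSMB9* and *PSMB8* fell (13.3%, against 2.62% of all genes), from 7.73 and 7.14 to 3.63 and 3.9 (-0.82, adjusted p = 0.0289) and from 26.4 and 25.8 to 19.2 and 18.8 (-0.44, adjusted p = 0.0474). *STAT2* and *PSMB8* were lost without any 1 library (0.67 to 1.01 and -0.46 to -0.42), and *IFI6*, *BST2* and *PSMB9* without any 1 library other than those of DSM OE (0.66 to 0.77, -0.86 to -0.75 and -0.87 to -0.77).

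Redox genes moved both ways. Of 23 NRF2 targets and redox genes, 3 rose and 3 fell (13% each way, against 2.49% and 2.62% of all genes), with a median of 0.05. *SRXN1*, among those that fell, lies in the chromosome 20 segment. *NQO1*, a quinone reductase gene, was 18.6 and 20.1 in control, 36.4 and 40.9 in WT OE, 22.8 and 17.4 in DSM OE and 23 and 19.8 in KD. WT OE was the highest of the 4 lines (0.96 over control, adjusted p = 0.0328). *HMOX1*, the heme oxygenase gene, went from 5.62 and 4.55 to 10.3 and 8.71 (0.79, adjusted p = 0.0399). *FTH1*, the ferritin heavy chain gene, went from 203 and 207 to 117 and 131 (-0.73, adjusted p = 0.0484), and *ABCC1*, a drug exporter gene, from 12.7 and 12.2 to 8.37 and 8.12 (-0.54, adjusted p = 0.035). The call of *NQO1* was lost without any 1 library other than those of DSM OE (0.88 to 1.04), as was *FTH1* (-0.81 to -0.64), and *HMOX1* and *ABCC1* without any 1 library (0.66 to 0.92 and -0.57 to -0.52).

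In signalling, *AKT1*, the kinase downstream of insulin and growth factor receptors, fell from 18 and 17.7 to 10.6 and 11.2 (-0.66, adjusted p = 0.0229). *EIF4EBP1*, an inhibitor of cap-dependent translation, rose from 50.7 and 54 to 85.2 and 73.7 (0.59, adjusted p = 0.0404). They were the 2 calls among 26 genes of insulin and IGF receptor signalling (3.85% each way, against 2.49% and 2.62% of all genes). *FOSL1*, an AP-1 subunit gene, was 126 and 127 in control, 84.2 and 69.8 in WT OE, 112 and 109 in DSM OE and 199.7 and 179 in KD (-0.71 in WT OE, adjusted p = 0.0325). With *MAF*, called higher, it was 1 of the 2 calls among 27 AP-1 and MAPK feedback genes. These were 3.7% each way, against 2.49% and 2.62% of all genes, with a median of 0.01. *BMF*, a gene of a pro-apoptotic BCL2 modifier, rose from 2.13 and 1.06 to 6.86 and 8.28 (1.75, adjusted p = 0.0182). It was the 1 call among 30 apoptosis regulators (3.33%, against 2.49% of all genes higher). The call of *AKT1* was lost without any 1 library other than those of DSM OE (-0.70 to -0.62), *EIF4EBP1* without any 1 library (0.49 to 0.69), *FOSL1* without any 1 library other than the first of WT OE (-0.84 to -0.58) and *BMF* without either WT OE library (1.45 to 2.05). Of 15 cancer-testis antigen genes *SSX1* rose and *XAGE1B* and *PAGE5* fell, and *MAGEC2*, which passed the filter only through control, was called lower. With *MAGEC2* the shares were 6.67% higher and 20% lower, against 2.49% and 2.62% of all genes. With 1 library left out the list had 0 to 1 higher and 0 to 5 lower calls, *SSX1* losing its call without any 1 library (1.07 to 1.46) and *XAGE1B* without either control, either KD or the first WT OE library (-0.91 to -0.72). *PAGE5* was 1.32 and 1.12 in control, 0.429 and 0.36 in WT OE, 4.99 and 4.03 in DSM OE and 35.5 and 38.9 in KD, lowest in WT OE (-0.67, adjusted p = 0.0483), and lost its call without any 1 library (-0.73 to -0.60).

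Other lists are given by their counts, against 2.49% of all genes higher and 2.62% lower. Of 16 epithelial and luminal markers, *CLDN1* rose and *MISP*, *AGR2* and *CLDN4* fell (median -0.15, and 0.05 without the second WT OE library). *CLDN1* and *CLDN4* encode claudins of tight junctions. *CLDN1* was 0.00312 and 0.322 in control, with 1.37 and 1.28 in WT OE (1.01, adjusted p = 0.027), and *CLDN4* was 31.8 and 34 in control, with 21 and 19 in WT OE (-0.69, adjusted p = 0.0218). Of 35 genes of hypoxia and glycolysis, *HK2* fell, and *ALDOC* and *PDK3* were called lower after passing the filter only through control (median -0.08). *HK2*, a hexokinase gene, fell from 16.8 and 16.9 to 10.8 and 9.21 (-0.71, adjusted p = 0.0264). *PDK3*, a pyruvate dehydrogenase kinase gene, was 1.01 and 1.04 in control and 0.00335 and 0.0898 in WT OE. Of 38 translation initiation factors *EIF4EBP1* and *EIF4A2* rose, and *EIF3CL* was called higher after passing the filter only through WT OE. *EIF4A2*, an RNA helicase gene, was 16.4 and 15.2 in control, 34.9 and 35.8 in WT OE, 41 and 36.6 in DSM OE and 17.1 and 20.4 in KD (1.11, adjusted p = 0.011). Of 30 lysosomal hydrolases *CTSA* and *CTSS* rose, both cathepsin genes, *CTSS* from 0.451 and 0.329 to 2.13 and 2.63 (1.28, adjusted p = 0.0335). The call of *CLDN1* was lost on leaving out any 1 library other than the second control (0.81 to 1.21), that of *CLDN4* on leaving out any 1 outside DSM OE (-0.76 to -0.63), and that of *HK2* on leaving out any 1 at all (-0.81 to -0.60). *EIF4A2* lost its call without any 1 of the control and WT OE libraries (1.06 to 1.17). For *CTSS* every omission outside KD ended the call (1.17 to 1.39).

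Among 22 tested genes of DAXX partners and H3.3 chaperones limma called none. With 5.11% of all genes called, that count says nothing particular of the partners. There were 3 higher and 1 lower at an unadjusted p under 0.05, with a median of 0.02. *ATRX* was 2.48 and 1.92 in control and 2.59 and 2.97 in WT OE (0.24, adjusted p = 0.399), *PML*, which organizes the nuclear bodies that hold DAXX, 6.13 and 5.28 in control, with 7.36 and 5.23 in WT OE (0.11, adjusted p = 0.747), and *H3-3B*, an H3.3 gene, 58.1 and 54.8 in control, with 60.6 and 78.7 in WT OE (0.29, adjusted p = 0.342). Limma also called none of 19 SUMO conjugation genes (2 higher and 2 lower at an unadjusted p under 0.05, median -0.06), of 24 p53 targets (5 and 2, median 0.17) or of 15 mitochondrially encoded genes (1 and 1, median 0.06). An effect smaller than the spread between duplicates could not be seen with 2 libraries a line.

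**Figure D5:**
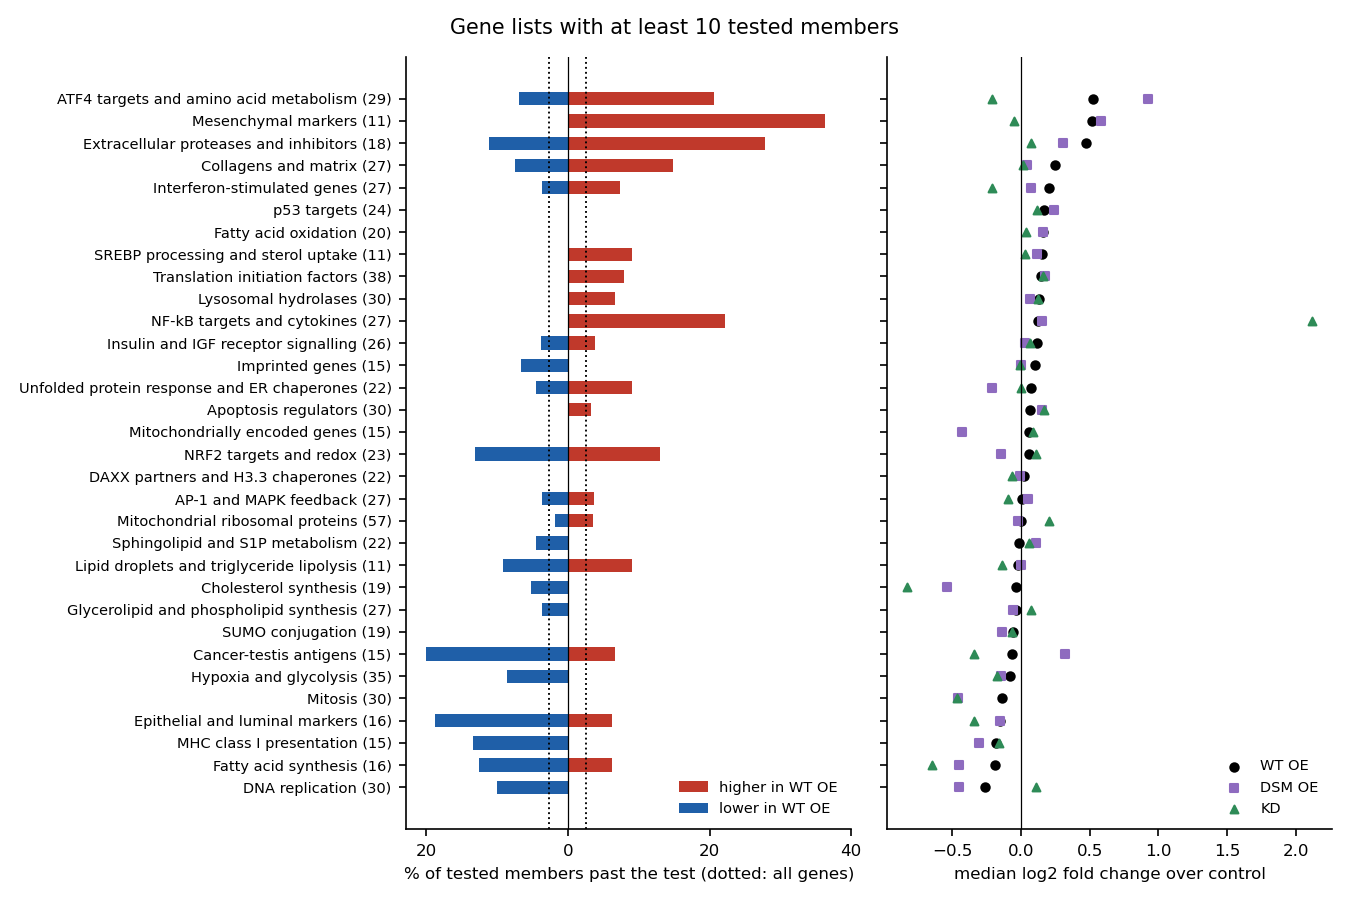
Left, the percentage of tested members called higher (red, to the right) or lower (blue, to the left) in WT OE for 32 gene lists with at least 10 tested members (number in parentheses), with the shares over all genes (2.49% and 2.62%) dotted. Right, the median log2 fold change over control of the same lists in WT OE, DSM OE and KD, where mesenchymal markers, proteases and ATF4 targets lie highest in WT OE and DNA replication lowest.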

How the data were processed

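RNA of 4 MDA-MB-231 lines was sequenced in 2 libraries each. Per the study's methods, reads of 150 bases were mapped to GRCh38 with HISAT2 (2.2.1-3n) and quantified as FPKM with StringTie (1.3.4) and Ballgown. The labels also name hg19. The authors deposited 1 FPKM value per gene and library, and the way transcripts were joined into genes is not known here. The design text states duplicates and the treatment notes triplicates, and 2 libraries per line were analysed here. The titles of the DSM OE libraries also carry "WT".

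Genes whose FPKM reached 1 in 2 or more libraries were tested on log2(FPKM + 1), so that fold changes of low genes are understated. Group means of the 4 lines were fitted over all 8 libraries with limma (3.58.1, R 4.3.3) with an empirical Bayes variance trend (4 residual and 1.863 prior degrees of freedom). P-values were adjusted by Benjamini-Hochberg over all 10465 genes, with a threshold of 0.05. An adjusted p without another name is limma's. The fit was tested on simulated data. FPKM gives no counts, so absolute depth and counting error are unknown. Positions, names and promoters are those of RefSeq, GRCh38.p14.

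The members, the 36 gene lists and the tests were chosen with earlier results of these data known. Genes were named by rule: *DAXX*, the 15 largest changes each way among genes whose higher line had a mean FPKM of 5 or more, the 8 largest each way apart from all 3 other lines, up to 4 called members of each list (or the 2 most expressed where none was called), and every member of the 3 lists on cholesterol, fatty acids and SREBP. Some genes are not reported here and were left out of the lists and their counts. Of the other genes named, 36 that were tested were chosen after their values were seen, *CCL2*, *IL1B*, *ADAM8*, *PLAT*, *TIMP3*, *FBN1*, *THBS1*, *SHMT2*, *WARS1*, *CEBPG*, *TRIB3*, *FTH1*, *ABCC1*, *PYGB*, *CENPB* and *XRN2* among them. Alternatives were a pseudocount of 0.1, no filter, a filter at a mean FPKM of 5, quantile normalization, median scaling, no variance trend, a robust fit, both lines alone, a replicate block, each library left out in turn, and a threshold on the fold change (1.3) with the p-value unadjusted.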

Additional observations from a re-analysis of the deposited data

How the results depend on the processing

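With 1 library left out in turn, the number of genes higher in WT OE was 54 to 133 and of those lower 48 to 152, the genes apart from all 3 other lines were 3 to 9 higher and 1 to 31 lower, and the log2 fold change of *DAXX* was 2.33 to 3.16. In these fits the lone library of a line is assumed to vary like the others. Fitted on the WT OE and control libraries alone, 6 genes were higher and 10 lower, and *DAXX* kept its log2 fold change of 2.74 with an adjusted p of 0.0971, with fewer residual degrees of freedom by construction. Without a filter on low values 40 genes were apart and higher, and with a mean FPKM of at least 5 there were 10 higher and 9 lower. With a threshold of 1.3 on the fold change and of 0.05 on the unadjusted p, 1031 genes were higher and 864 lower, and 104 and 87 apart from all 3 lines. For these other counts and for the same results under a pseudocount of 0.1, median scaling, quantile normalization, no variance trend and a robust fit, directions and calls held, and counts stayed within 1.5 times the value reported. None of the 128 called genes named changed direction, while 25 of the 62 named genes that were not called did so with a library left out and 1 of them under another alternative. Of 37 medians (36 lists and the chromosome 20 segment), 13 changed sign with a library left out, the largest of them -0.27 as reported, and 7 under another alternative. Of the values of single genes, 492 lost and 1 gained a call among those with a library left out, while 1019 did not change side; the counts were 236, 8 and 1598 under the other alternatives. The causes of these losses were not tested.

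With a replicate block 69 genes were higher and 71 lower, and 5 and 1 were apart from all 3 lines, while *DAXX* kept its call. The numbers do not pair the libraries: the differences between the 2 libraries of a line correlated between control and WT OE with -0.06 across genes, and between -0.06 and 0.04 over all pairs of lines. Depth is unknown, and with 2 libraries a line, differences near the spread between duplicates could not be detected.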

Other observations

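Some well expressed genes could not be compared because 1 library of a pair stood far from the other. *VIM*, the vimentin gene, was read at 39.1 and 970.3 in KD, *TRIM28*, a corepressor gene, at 104 and 6.38 in control and 69 and 124 in WT OE, and *FASN* at 12.5 and 118 in WT OE and 14.4 and 113 in KD. No other measure of these genes was analysed here.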
